A study of Mus musculus with 56 samples.

Results

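Day 3 double-negative cells, which carry neither Thy1 nor SSEA1 on their surface, were compared with the Thy1+ and the SSEA1+ cells sorted on the same day of reprogramming. These 6 libraries, 2 per population, belong to a series of 56 samples, and all 13451 gene rows of the sorted-cell table entered the comparisons. The starting cells were OG2-MEFs, mouse embryonic fibroblasts with an Oct4-GFP reporter. All 3 populations carried the control shRNA (shLuci), were induced with Oct4, Sox2, Klf4 and Myc, and were taken at day 3. The protocol notes describe both retroviral stocks of the factors and a doxycycline-inducible polycistronic lentivirus with rtTA, and do not say plainly which was used for the sorted cells. Reads of the 4 factors may therefore include introduced copies of either kind. Libraries with Ctcf shRNA (shCTCF) at day 3 and control libraries of days 0, 6, 9 and 12 served as further samples. The promoter of the vector and the number of cultures per population are not given in the sources used here.

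Thy1 is a surface glycoprotein of fibroblasts that is lost early when factors are induced. SSEA1 is a carbohydrate antigen that appears on cells on the way to pluripotency. Double-negative cells carry neither antigen, and the comparison asks which genes lie between the 2 neighbours and which set double-negative cells apart from both.

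The sort antigens were checked first. Thy1 (GRCm38 9:44043384-44048579) had scores of 3504 and 4287 in Thy1+ cells, 248 and 252 in double-negative cells and 216 and 202 in SSEA1+ cells. A score is the authors' normalized and rounded expression value, whose distribution is nearly the same in every library. Thy1 was therefore low in both populations sorted without it, at 3.95 ± 0.18 (SE) below Thy1+ cells on the log2(score + 1) scale used for all differences (limma, adjusted p = 2.23e-14). Fut9, a fucosyltransferase that makes the SSEA1 epitope, had 635 and 666 in Thy1+, 1590 and 1302 in double-negative and 4898 and 6004 in SSEA1+ cells. The populations did not overlap, but double-negative cells passed the test only against SSEA1+ cells (-1.91, adjusted p = 0.00902), and against Thy1+ cells the difference of 1.14 did not pass (adjusted p = 0.15). The Fut9 call against SSEA1+ cells was lost without double-negative replicate 2 (adjusted p = 0.0593) or SSEA1+ replicate 2 (0.06).

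Double-negative cells were nearer to Thy1+ cells. Of 13451 genes, 3801 (28.3%) passed an adjusted p below 0.05 against Thy1+ cells, 1867 higher and 1934 lower in double-negative cells. Against SSEA1+ cells 6014 genes (44.7%) passed, 2815 higher and 3199 lower. Without double-negative replicate 2 the first of these counts was 2461. Across 10931 genes with a mean score of at least 100, Pearson's r of log2 scores was 0.967 to 0.972 between double-negative and Thy1+ libraries and 0.928 to 0.932 between double-negative and SSEA1+ libraries. It was 0.9914 between the double-negative libraries, and these values describe genes, which are not independent replicates. In sorted bulk samples, fewer cells of a type and less RNA per cell cannot be told apart.

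**Figure D1:**
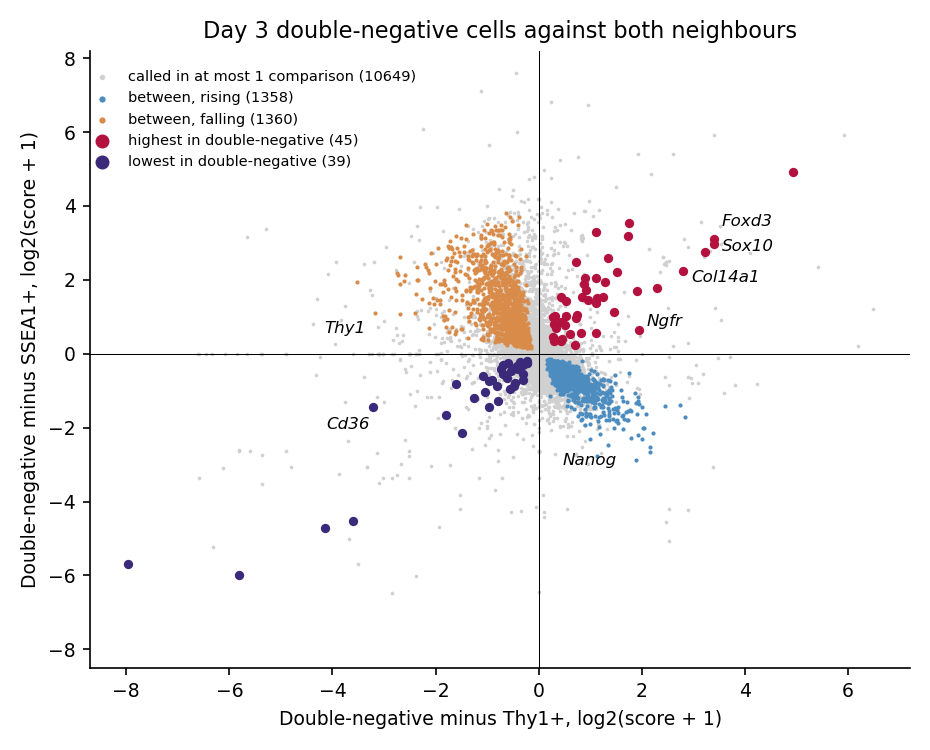
Each point is 1 of 13451 genes, with the difference of day 3 double-negative from Thy1+ cells on the x axis and from SSEA1+ cells on the y axis, both on the log2(score + 1) scale. Most genes called in both comparisons lie at the upper left (1360 falling) and lower right (1358 rising), while 45 genes highest and 39 lowest in double-negative cells lie at the upper right and lower left.

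Genes called in both comparisons fell mostly between the neighbours. There were 1358 genes (10.1% of all tested) that rose from Thy1+ to double-negative to SSEA1+ cells with both steps called, and 1360 (10.1%) that fell at both steps. Another 45 genes (0.335%) were highest and 39 (0.29%) lowest in double-negative cells. The rising count was 826 without double-negative replicate 1 and 750 without replicate 2. The highest count was 21 without double-negative replicate 2 and 24 without Thy1+ replicate 2, and the lowest count was 19 without Thy1+ replicate 2 and 23 without SSEA1+ replicate 2.

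Genes of the neural crest and of Schwann cells, the glia of peripheral nerves that derive from it, stood out among the genes highest in double-negative cells. Sox10, a transcription factor that specifies neural crest and its glial and pigment descendants (GRCm38 15:79154908-79165240), had scores of 4 and 5 in Thy1+, 64 and 50 in double-negative and 8 and 5 in SSEA1+ cells. Foxd3, a forkhead factor of premigratory neural crest and of pluripotent cells (GRCm38 4:99656299-99658622), had 1 and 5, 32 and 39, and 8 and 1. In both genes each double-negative library lay far above all 4 libraries of the neighbours, whose scores were near the bottom of the scale. Sox10 differed from Thy1+ cells by 3.39 ± 0.60 (adjusted p = 0.000111) and from SSEA1+ cells by 2.97 ± 0.60 (adjusted p = 0.000208). Foxd3 differed by 3.39 ± 0.67 (adjusted p = 0.000423) and 3.10 ± 0.67 (adjusted p = 0.000485). Both have means below the 100 that the naming rule asks for and were picked with their values known, as were L1cam, Gldn, Fndc1, Olfml2a, Cyp11a1 and Sema4f.

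Ngfr, the p75 neurotrophin receptor of neural crest cells (GRCm38 11:95568818-95587735), had 76 and 98 in Thy1+, 323 and 346 in double-negative and 206 and 220 in SSEA1+ cells. It differed by 1.94 ± 0.13 (adjusted p = 2.18e-11) and 0.65 ± 0.13 (adjusted p = 0.000158), so SSEA1+ cells also stood above Thy1+ cells. Gldn, gliomedin, a Schwann cell protein of the nodes of Ranvier, had 22 and 20, 76 and 68, and 7 and 7. Cadm4, an adhesion protein that Schwann cells use to bind axons, had 56 and 53, 134 and 147, and 19 and 26. L1cam, a neural adhesion molecule, had 24 and 28, 60 and 66, and 16 and 28. In these 3 genes the double-negative libraries were the highest of the 6, and all 6 differences passed (Gldn 1.73 and 3.19, Cadm4 1.35 and 2.60, L1cam 1.25 and 1.53). Sox10, Ngfr, Gldn, Cadm4 and L1cam stayed in the class under each of 15 alternative settings of the pseudocount, filter, scaling, trend, libraries in the fit and replicate block, including the omission of each library. Stricter limits on the level, the p-value or the size of the difference are not among these 15. The setting without the filter is among them and repeats the main fit, because the filter removed no gene. Omitting a library of one population leaves the difference between the others unchanged. Foxd3 stayed under each omission and left the class in the fit of 6 libraries alone and in the same fit with replicate numbers as blocks.

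Cdh19, a cadherin of Schwann cell precursors (GRCm38 1:110888326-110977584), had the highest level of these genes at 941 and 1018 in double-negative cells, against 99 and 95 in Thy1+ and 158 and 129 in SSEA1+ cells. Its libraries did not overlap, and its differences were 3.32 and 2.77, yet it did not pass in the fit that shares 1 estimate of spread over 44 libraries (adjusted p = 0.168 and 0.209). In a fit of the 6 libraries alone it passed (adjusted p = 0.00306 and 0.000413).

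A list of 30 neural crest and Schwann genes was written after Sox10 and Foxd3 had been seen, so its counts are a description. Of 24 tested members, 12 were higher and 4 lower than in Thy1+ cells, and 12 were higher and 4 lower than in SSEA1+ cells. The background was 13.9% higher and 14.4% lower in the first comparison and 20.9% higher and 23.8% lower in the second. The median difference was 1.16 and 1.09, beside 0.01 and -0.08 over all genes. Its summed score was 4093 to 4436 in double-negative, 3538 to 3540 in Thy1+ and 2912 to 2945 in SSEA1+ libraries. Such a sum is weighted to genes with high scores. Cdh19, which was not called, had 941 and 1018 in double-negative and 99 and 95 in Thy1+ cells. On average this difference was larger than that of the whole sum, so the sum's excess over Thy1+ cells rested on Cdh19. Both counts against Thy1+ cells, and the lower count against SSEA1+ cells, changed when single libraries were left out. Not all members followed. Gap43, a growth cone protein, fell at both steps with 852 and 870, 180 and 250, and 56 and 52, and Pmp22, a protein of peripheral myelin, fell as well with 520 and 508, 252 and 239, and 62 and 56. Tfap2b, a crest transcription factor, passed only against Thy1+ cells, by 1.89. Mitf, the regulator of pigment cells, and Egr2, the regulator of myelination, passed in neither comparison. Erbb3, a receptor of the crest and Schwann lineage, was called lower than in SSEA1+ cells. Its difference was -0.74 to -0.67 when a single library of either population was left out, where the call was lost.

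**Figure D2:**
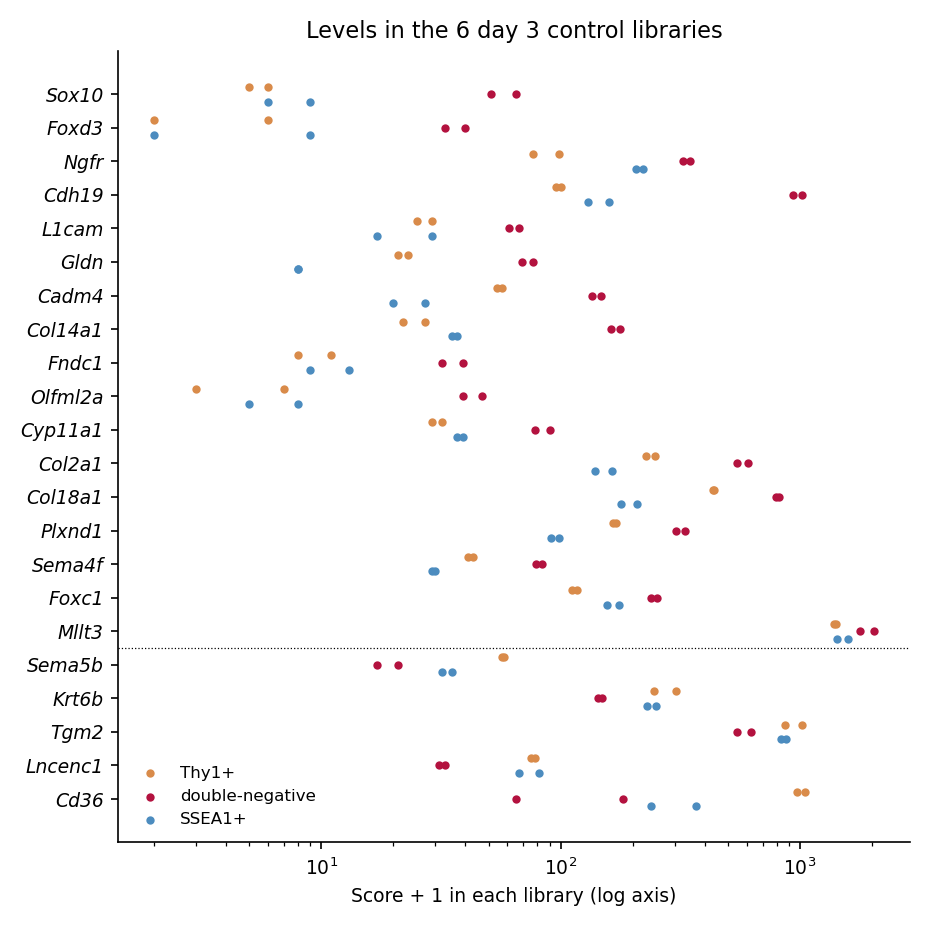
Scores plus 1 on a log axis in the 6 day 3 control libraries, 2 points per population. Above the dotted line, from Sox10 (50 and 64) in the first row to Mllt3 (1790 and 2040) in the last, double-negative libraries are the highest. Below the line they are the lowest. Cdh19 is drawn although it was not called.

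Promoters of Foxd3, Ngfr and Cadm4 are shown because these genes were highest in double-negative cells together. No promoter was available here for Sox10 or Col14a1, which were highest as well. Each is the stretch from 250 bases before to 50 bases after the start given by RefSeq (GRCm38.p6), written on the strand of the gene, with capitals for motifs searched on both strands: TGACTCA (AP-1), CACCTG (an E-box that Snail and Zeb factors bind), GGGCGG (GC box) and CCAAT. Foxd3 lies at chr4:99656049-99656348 (+), Ngfr at chr11:95587649-95587948 (-) and Cadm4 at chr7:24481773-24482072 (+).
Foxd3: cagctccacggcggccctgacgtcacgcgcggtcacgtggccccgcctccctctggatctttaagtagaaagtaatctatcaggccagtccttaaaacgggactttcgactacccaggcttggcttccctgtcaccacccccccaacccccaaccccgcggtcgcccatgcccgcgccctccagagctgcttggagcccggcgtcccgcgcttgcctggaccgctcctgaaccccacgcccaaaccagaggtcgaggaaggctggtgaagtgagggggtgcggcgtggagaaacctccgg
Ngfr: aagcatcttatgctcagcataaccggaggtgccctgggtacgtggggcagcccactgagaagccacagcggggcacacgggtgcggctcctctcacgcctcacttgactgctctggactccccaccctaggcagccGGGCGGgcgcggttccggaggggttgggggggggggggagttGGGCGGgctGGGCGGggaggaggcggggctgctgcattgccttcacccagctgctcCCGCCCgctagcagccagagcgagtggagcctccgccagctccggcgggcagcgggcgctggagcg
Cadm4: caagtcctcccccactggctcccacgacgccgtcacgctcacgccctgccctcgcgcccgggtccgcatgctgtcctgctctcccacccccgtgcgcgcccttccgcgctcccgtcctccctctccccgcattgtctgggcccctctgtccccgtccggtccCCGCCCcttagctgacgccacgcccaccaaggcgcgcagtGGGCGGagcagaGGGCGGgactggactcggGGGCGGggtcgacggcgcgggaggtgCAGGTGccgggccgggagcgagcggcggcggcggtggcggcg
The Foxd3 stretch held none of the 4 motifs, Ngfr held 4 GC boxes, and Cadm4 held 4 GC boxes and 1 E-box. Of the 45 genes highest in double-negative cells, 36 had a promoter in the table, and 22 of them (61.1%) held a GC box, beside 64.3% of 10252 promoters of all genes tested. The E-box was in 16.7% of them and in 17.1% of all, CCAAT in 38.9% and 39.2%, and the AP-1 motif in 2.78% and 3.67%. Among genes between the neighbours, the AP-1 motif was in 5.04% of 1012 promoters of falling and in 2.37% of 1056 promoters of rising genes. These shares describe letters and not binding.

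Other genes highest in double-negative cells included collagens, semaphorin pathway genes and transcription factors. Col14a1, a collagen that organizes fibrils, had 21 and 26 in Thy1+, 162 and 177 in double-negative and 36 and 34 in SSEA1+ cells. Among class members with a mean score of at least 100 in 1 population, its smaller step was the largest (2.81 ± 0.22, adjusted p = 7.47e-10, and 2.24 ± 0.22, adjusted p = 4.34e-09). Col2a1, the main collagen of cartilage, had 226 and 248, 546 and 608, and 138 and 163, and Col18a1, a basement membrane collagen, had 431 and 438, 793 and 818, and 178 and 208. In both collagens the double-negative libraries were highest and the SSEA1+ libraries lowest, without overlap. Fndc1, Olfml2a and Cyp11a1, the enzyme that starts steroid synthesis, differed by 1.91, 3.22 and 1.46 from Thy1+ and by 1.71, 2.76 and 1.14 from SSEA1+ cells. Plxnd1, a semaphorin receptor of vessels, differed by 0.92 and 1.74, and Sema4f, a semaphorin, by 0.96 and 1.47. Foxc1, a mesodermal and crest forkhead factor, had 116 and 111, 238 and 252, and 156 and 175. Mllt3, a subunit of the super elongation complex, differed by 0.44 and 0.34 at scores of 1790 and 2040, the smallest steps among the 15 genes that stayed in the class under those 15 settings.

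Scube3, a secreted glycoprotein (118 and 109, 208 and 208, 45 and 68), was kept under each omission of a library and left the class in the fit of 6 libraries alone and in that fit with replicate blocks. Calls of some other named genes rested on single libraries. Rgs8, an inhibitor of G protein signalling (80 and 56, 139 and 152, 54 and 56), no longer passed against Thy1+ cells without Thy1+ replicate 2 (adjusted p = 0.0714). Akr1c14, a steroid dehydrogenase, had 199 and 228, 344 and 428, and 110 and 160. It no longer passed without double-negative replicate 2 (adjusted p = 0.0525). Ahrr, the repressor of the aryl hydrocarbon receptor (77 and 61, 110 and 122, 58 and 53), did not pass against Thy1+ cells without double-negative replicate 1 (0.0718), double-negative replicate 2 (0.154) or Thy1+ replicate 2 (adjusted p = 0.218). Coch, a secreted matrix protein, had 188 and 191, 346 and 281, and 64 and 47, and its adjusted p against Thy1+ cells was 0.211 and 0.053 without double-negative replicate 1 and 2, and 0.118 and 0.11 without Thy1+ replicate 1 and 2. Of the 45 genes, 18 had both steps at or above 1 on the log2 scale, and in 17 the highest mean score was below 100.

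Cartilage genes were listed after Col2a1 and Pax1 had been seen. Of 10 tested members, 5 were higher and 1 lower than in Thy1+ cells (13.9% and 14.4% of all genes), and 4 were higher and none lower than in SSEA1+ cells (20.9% and 23.8% of all genes). The 5 became 3 without either double-negative library or Thy1+ replicate 2. The 1 lower became 2 without double-negative replicate 2, and 1 was lower than in SSEA1+ cells without double-negative replicate 1. Sox6, a cartilage transcription factor, passed only against Thy1+ cells (37 and 30, 101 and 91, 78 and 90). Sox9, the master factor of cartilage, had 164 and 147, 62 and 114, and 18 and 22, so it followed the falling order with a step from Thy1+ cells of -0.88 that did not pass (adjusted p = 0.0557).

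Genes lowest in double-negative cells were less stable, and 4 of 39 stayed in the class under the same 15 settings. Without double-negative replicate 1 there were 35 such genes, 18 of them among the 39, and without replicate 2 there were also 35, with 17 among the 39. Sema5b, a semaphorin of axon guidance, had 56 and 57 in Thy1+, 16 and 20 in double-negative and 31 and 34 in SSEA1+ cells. Krt6b, a keratin of stressed epithelium, had 244 and 304, 148 and 143, and 230 and 250. Tgm2, a transglutaminase that cross-links matrix, had 870 and 1022, 546 and 622, and 838 and 878. In these genes no double-negative library overlapped a neighbour, and the steps were -1.61 and -0.82 for Sema5b, -0.90 and -0.72 for Krt6b, and -0.69 and -0.56 for Tgm2. Lncenc1, a noncoding RNA of embryonic stem cells, had 74 and 77, 32 and 30, and 80 and 66, with steps of -1.26 and -1.20.

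Cd36, a scavenger receptor for fatty acids (GRCm38 5:17781690-17888801), had 1048 and 970 in Thy1+, 182 and 64 in double-negative and 238 and 366 in SSEA1+ cells. It was lower by 3.21 ± 0.35 (adjusted p = 1.39e-07) and 1.44 ± 0.35 (adjusted p = 0.00138), and the second difference did not pass without double-negative replicate 2 (adjusted p = 0.126). Apoe, a lipid carrier, had 157 and 164, 84 and 68, and 113 and 116, and its step from SSEA1+ cells (-0.59) did not pass without double-negative replicate 2 (adjusted p = 0.0614). Cd200r4 was listed at 0 in both double-negative libraries, at 224 and 279 in Thy1+ and at 72 and 36 in SSEA1+ cells, and its adjusted p against SSEA1+ cells was 0.0751 without either double-negative library, 0.103 without SSEA1+ replicate 1 and 0.0533 without SSEA1+ replicate 2.

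The genes apart from both neighbours were looked up in other libraries, whose levels did not enter the differences but which share the estimate of spread in the fit. With Ctcf shRNA at day 3, 43 genes (0.32%) were highest in double-negative cells, and 21 of the 45 control genes were among them (46.7% of the control class and 48.8% of the other). Both differences had the same sign there in 41 of 45 genes (91.1%), beside 10.6% of all genes with that pair of signs. Of the 39 lowest genes, 10 were lowest again among 40 (0.297%), which is 25.6% and 25% of the 2 classes, and 35 (89.7%) kept both signs beside 16.2% of all genes. Sox10 had 4 and 3 in Thy1+, 60 and 62 in double-negative and 1 and 4 in SSEA1+ libraries with Ctcf shRNA, and Col14a1 had 18 and 18, 142 and 152, and 10 and 19. The test of a difference between both shRNAs called 1 gene, Cd36 (0.00743% of all), whose scores lay between those of its neighbours with Ctcf shRNA. Cdh19 had 26 and 70, 1291 and 930, and 146 and 0, and was called in both comparisons there. Among the 15 genes kept under the 15 settings, Foxc1 and Mllt3 were the 2 that were not highest with Ctcf shRNA, where both passed only against Thy1+ cells.

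At day 6, 95 genes (0.706%) were highest in double-negative cells and 6 of the 45 were among them. At day 9, 57 genes (0.424%) were highest and 1 of the 45 was among them. The lowest class shared 2 of 39 genes with the 128 (0.952%) of day 6 and none with the 33 (0.245%) of day 9. Double-negative Sox10 scores were 52 and 44 at day 6 and 19 and 24 at day 9, when Sox10 was no longer called. Ngfr was between its neighbours at day 6, with means of 82.5 in Thy1+, 510 in double-negative and 895 in SSEA1+ cells. Col18a1 was highest in Thy1+ cells at day 6, with means of 6206.5 there, 1362.5 in double-negative and 1326 in SSEA1+ cells. Foxc1 was in the opposite class at day 6, lowest in double-negative cells. Its means were 290 in Thy1+, 179 in double-negative and 345 in SSEA1+ cells.

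Several of the crest genes and Col14a1 stood in double-negative cells near their day 0 level, while both neighbours were lower. The day 0 labels name no sorted population, unlike those of day 3. At day 0 Sox10 had 64 and 95, Ngfr 310 and 351, Cadm4 126 and 149, Cdh19 1201 and 2142, and Col14a1 115 and 158. In day 3 double-negative cells they had 50 and 64, 323 and 346, 134 and 147, 941 and 1018, and 162 and 177 in ascending order. The libraries of Ngfr and Cadm4 overlapped between both days, those of Sox10 met at 64, those of Col14a1 lay just above day 0, and those of Cdh19 lay below it. The difference of double-negative cells from day 0 did not pass for Sox10 (-0.46, adjusted p = 0.536), Ngfr (0.02, 0.916), Cadm4 (0.03, 0.901) or Col14a1 (0.33, 0.217), which does not show that the levels are equal. Of the 45 highest genes, 20 were higher and 6 lower than at day 0, and of all genes 29.8% were higher and 27.7% lower. Col2a1 was higher than at day 0 by 1.33 (adjusted p = 2.07e-07), and Rgs8 by 2.86 (adjusted p = 1.03e-09). Cd36 had 11100 and 14861 at day 0, and its day 3 level in double-negative cells was lower by 6.88 on the log2 scale (adjusted p = 2.42e-15). In GFP+ cells of day 12, Foxd3 had 460 and 552 and Sox10 had 7 and 7.

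**Figure D3:**
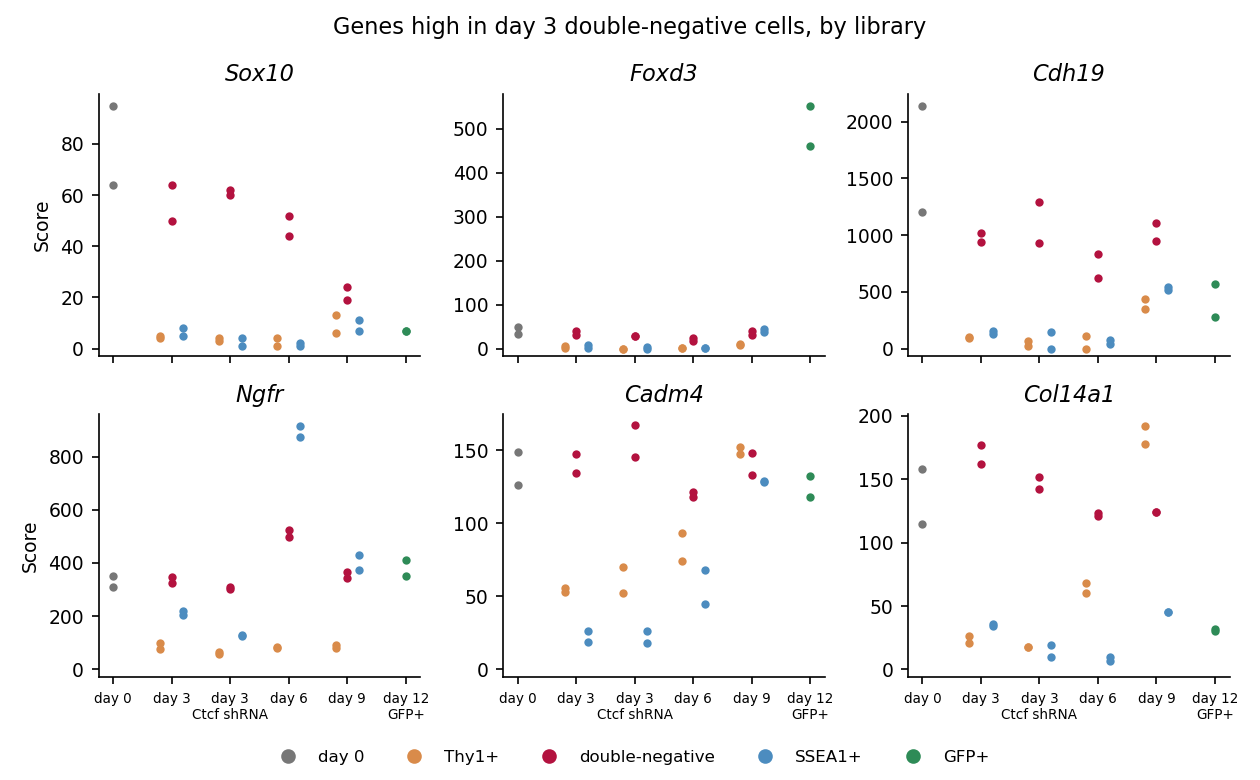
Scores by library of 6 genes at day 0, in the sorted populations of days 3, 6 and 9 with control shRNA and of day 3 with Ctcf shRNA, and in day 12 GFP+ cells, on linear axes that start near 0. For Sox10, the double-negative points of day 3 (50 and 64) lie close to those of day 0 (64 and 95), and both neighbours lie at 8 or below.

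The 4 reprogramming factors were all between the neighbours. Klf4 had 10703 and 9753 in Thy1+, 15834 and 17788 in double-negative and 28597 and 33313 in SSEA1+ cells. Pou5f1, which encodes Oct4, had 5548 and 4544, 7976 and 8858, and 13126 and 14652. Sox2 had 5272 and 5160, 8718 and 10011, and 13458 and 15692, and Myc had 9074 and 8610, 13180 and 14534, and 20262 and 22939. No library of one population overlapped the next for Klf4, Pou5f1, Sox2 or Myc, and double-negative cells were higher than Thy1+ cells by 0.65 to 0.84 and lower than SSEA1+ cells by 0.64 to 0.88. The call of Pou5f1 against Thy1+ cells was lost without double-negative replicate 2 (adjusted p = 0.0556) or Thy1+ replicate 2 (0.0805), and that of Sox2 against SSEA1+ cells without double-negative replicate 1 (adjusted p = 0.0606) or SSEA1+ replicate 2 (0.0661). The deposited scores do not separate the introduced from the cells' own copies.

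Of the pluripotency genes, 13 were called lower than in SSEA1+ cells and 13 did not pass there. Of 28 tested, 8 were higher and 1 lower than in Thy1+ cells (background 13.9% and 14.4%), and 2 were higher and 13 lower than in SSEA1+ cells (20.9% and 23.8%). The first count was 4 without double-negative replicate 2 and 5 without Thy1+ replicate 2, and the last was 8 without double-negative replicate 2 and 7 without SSEA1+ replicate 2. The 1 lower gene was not called without double-negative replicate 2 or Thy1+ replicate 1. Nanog, a core factor of pluripotency, had 4 and 6, 5 and 8, and 58 and 38, so double-negative cells were lower than SSEA1+ cells by 2.71 (adjusted p = 1.63e-05) and did not pass against Thy1+ cells (0.31, adjusted p = 0.651). Nr5a2, a nuclear receptor that drives Oct4 expression, had 3 and 2, 4 and 8, and 50 and 55. Many late genes of the list, such as Dppa3, Dppa4 and Zfp42, were at 8 or below in all 6 libraries.

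Of 26 epithelial genes, 8 were higher and 2 lower than in Thy1+ cells (13.9% and 14.4% of all genes), and 6 were higher and 13 lower than in SSEA1+ cells (20.9% and 23.8% of all genes). The first count was 5 without double-negative replicate 1 and 4 without Thy1+ replicate 2. Epcam, an epithelial adhesion protein, had 40 and 38, 94 and 66, and 232 and 262. Dsp, a desmosomal protein, had 4044 and 4029, 5888 and 7071, and 10706 and 13336. Both rose at both steps, whereas Cdh1, E-cadherin, had 94 and 81, 114 and 136, and 312 and 348 and passed only against SSEA1+ cells (-1.40, adjusted p = 0.000204). Krt18, a simple epithelial keratin, went the other way with 226 and 240, 120 and 145, and 45 and 50.

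Most fibroblast matrix genes fell at both steps. The second step was the larger on the log2 scale, whereas on the linear scale the median position of double-negative cells was 0.52. Of 24 fibroblast matrix genes, 21 were lower than in Thy1+ (14.4% of all genes) and 22 higher than in SSEA1+ cells (20.9%). None passed in the other direction, and the medians were -0.92 and 2.58. Col1a1 had 29868 and 25824, 16892 and 18413, and 1578 and 1708. Fn1, fibronectin, had 54668 and 42340, 20576 and 23538, and 2768 and 3050. Loxl2, a matrix cross-linking oxidase, had 3380 and 3248, 1046 and 1048, and 252 and 235. In each of these genes no library of one population overlapped the next. Dcn, decorin, was an exception with 1222 and 1156, 386 and 456, and 362 and 376. Its difference of double-negative from SSEA1+ cells did not pass (0.18, adjusted p = 0.421). Col6a1, a microfibril collagen, was the opposite, with 4868 and 4602, 4654 and 4935, and 1527 and 1548, and did not pass against Thy1+ cells (0.02, adjusted p = 0.908).

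Mesenchymal genes gave 13 lower and 1 higher of 19 against Thy1+ cells (14.4% and 13.9% of all genes). The 13 became fewer when some single libraries were left out. Against SSEA1+ cells 18 were higher and none lower (20.9% and 23.8% of all genes). Vim had 58655 and 52754, 39602 and 41231, and 15742 and 16384, and Cdh11, a mesenchymal cadherin, was lower by 1.37 and higher by 2.56. Nt5e, the ecto-enzyme CD73, was the member higher than in Thy1+ cells, by 1.57 (adjusted p = 9.78e-06). Of 11 smooth muscle genes 10 were lower than in Thy1+ and 10 higher than in SSEA1+ cells, with medians of -1.45 and 1.99. Acta2, smooth muscle actin, had 27078 and 28626, 10108 and 10324, and 1346 and 1348, and Tagln had 14923 and 14606, 5873 and 4939, and 854 and 750. Of 14 TGF-beta and SRF targets 10 were lower than in Thy1+ cells and 11 higher than in SSEA1+ cells. Both counts became smaller when some single libraries were left out.

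Of 20 mitosis genes 17 were higher than in Thy1+ cells (13.9% of all genes) and 18 lower than in SSEA1+ cells (23.8%). Their medians were 0.45 and -0.47. The first count was 11 without Thy1+ replicate 1. Of 20 DNA replication genes 12 were higher than in Thy1+ and 15 lower than in SSEA1+ cells, with medians of 0.43 and -0.41. Both counts, like the 18 for mitosis genes, became smaller when some single libraries were left out. Mybl2, a transcription factor of cycling cells, was higher by 1.02 and lower by 0.89, and Mcm5, a subunit of the replicative helicase, was higher by 0.65 and lower by 0.53. None of the 40 members passed in the other direction in either comparison. Of 18 CTCF, cohesin and ISWI genes 7 were higher than in Thy1+ and 6 lower than in SSEA1+ cells, beside 13.9% and 23.8% of all genes. The second count changed when some single libraries were left out. The first count was 4 without double-negative replicate 2 or Thy1+ replicate 2. Ctcf itself had 909 and 827, 1091 and 1160, and 1362 and 1433, and its step from SSEA1+ cells (-0.31) did not pass without double-negative replicate 1 (adjusted p = 0.052).

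Inflammatory and secreted signals were mostly above their SSEA1+ level. Of 18 tested, 7 were lower than in Thy1+ and 14 higher than in SSEA1+ cells, beside 14.4% and 20.9% of all genes. The medians were -0.70 and 2.13. The first count was 4 without replicate 1 and 3 without replicate 2 of either the double-negative or the Thy1+ cells, and without double-negative replicate 2 there was 1 higher gene. Csf1, the macrophage growth factor, fell at both steps with 6272 and 6448, 3408 and 3622, and 523 and 562. Of 16 AP-1 and immediate early genes 4 were lower and 1 higher than in Thy1+ cells (14.4% and 13.9% of all genes). Against SSEA1+ cells 12 were higher and 2 lower (20.9% and 23.8% of all genes). The 4 became 2 without double-negative or Thy1+ replicate 1, and the 1 higher gene was not called without either replicate 2 of these populations. Interferon-stimulated genes gave 6 of 15 lower than in Thy1+ cells and none higher, and 2 higher and 1 lower than in SSEA1+ cells. The 6 became 3 without double-negative replicate 1 and 2 without either Thy1+ library. The 2 became 1 without SSEA1+ replicate 1, and the 1 lower gene was not called without double-negative replicate 2 or SSEA1+ replicate 1.

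For the next 3 lists the shares over all genes were 13.9% higher and 14.4% lower than in Thy1+ cells and 20.9% higher and 23.8% lower than in SSEA1+ cells. Among 19 p53 targets and CDK inhibitors, 2 were higher and 4 lower than in Thy1+ cells and 6 were higher and 4 lower than in SSEA1+ cells, with medians of 0.00 and -0.05. The 4 lower than in Thy1+ cells became 2 without either double-negative library or Thy1+ replicate 1, and the 2 higher became 1 without double-negative replicate 2. Cdkn1a, the p21 inhibitor, passed in neither comparison (-0.02 and 0.05), whereas Cdkn2b, the p15 inhibitor, fell at both steps (-0.86 and 1.28). Of 19 glycolysis and hypoxia genes, 5 were higher and 2 lower than in Thy1+ cells, and 7 were higher and 3 lower than in SSEA1+ cells. The 5 became 3 without either double-negative library or Thy1+ replicate 2, and the 2 became 1 without any 1 of the double-negative and Thy1+ libraries. The 7 became 4 without double-negative replicate 1 or SSEA1+ replicate 1. Pdk1, which holds back entry of pyruvate into mitochondria, rose at both steps by 0.96 and 0.92. Of 15 genes of the stress responses, 3 were higher and 5 lower than in Thy1+ cells and 5 were higher and 4 lower than in SSEA1+ cells. Without double-negative replicate 2, 1 was higher and 3 were lower than in Thy1+ cells.

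**Figure D4:**
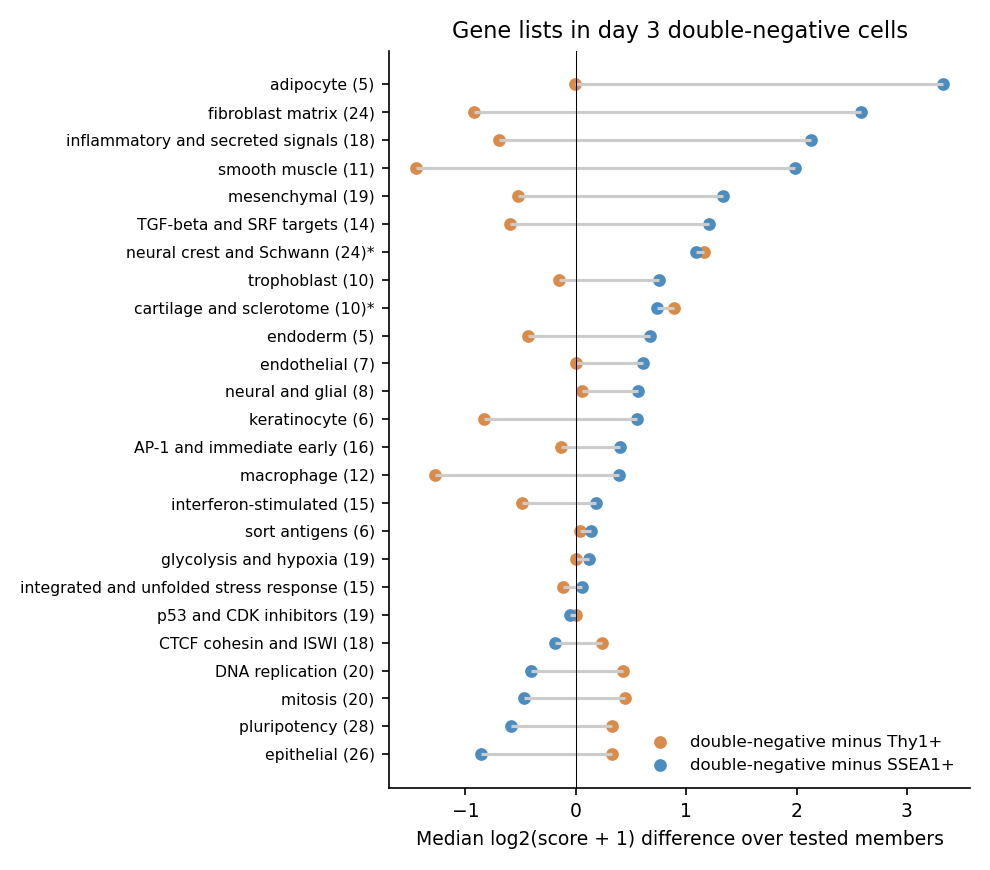
Median difference of double-negative cells from Thy1+ (orange) and SSEA1+ cells (blue) over the tested members of each gene list, with the number tested in parentheses. Lists marked * were written after values were seen. Fibroblast matrix genes have medians of -0.92 and 2.58, mitosis genes 0.45 and -0.47, and the neural crest list 1.16 and 1.09.

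Markers of other cells that a gate without both antigens could hold were measured beside these results. Over all genes, 13.9% were higher and 14.4% lower than in Thy1+ cells, and 20.9% higher and 23.8% lower than in SSEA1+ cells. Of 12 macrophage genes, 3 were lower than in Thy1+ cells and 1 higher than in SSEA1+ cells, and their summed score was 1743 to 1912 in double-negative, 3181 to 3323 in Thy1+ and 1315 to 1377 in SSEA1+ libraries. The 3 became 1 without Thy1+ replicate 2, and the 1 became 2 without either SSEA1+ library. Lyz2, lysozyme of myeloid cells, had 396 and 481, 70 and 64, and 70 and 80, and Ptprc, the CD45 gene, had 8 and 12 in double-negative cells. Of 7 endothelial genes, 1 was lower than in Thy1+ and 2 higher than in SSEA1+ cells, with Pecam1 at 4 and 6 and Cdh5 at 3 and 3 in double-negative cells. The 2 became 1 without double-negative replicate 1, and none was called without double-negative replicate 2 or SSEA1+ replicate 1. Their summed score was 1429 in both double-negative libraries, 1742 to 1834 in Thy1+ and 1121 to 1166 in SSEA1+ libraries. Of 6 keratinocyte genes, 5 were lower than in Thy1+ cells, 3 were higher and 1 lower than in SSEA1+ cells (2 lower without SSEA1+ replicate 1), and Krt14 had 11 and 16 in double-negative cells. Of 10 trophoblast genes, 2 were lower than in Thy1+ and 5 higher than in SSEA1+ cells, and their sum was 1762 to 2350 in double-negative, 11829 to 13416 in Thy1+ and 428 to 616 in SSEA1+ libraries. The 2 became 1 without double-negative or Thy1+ replicate 1, and the 5 became 3 without SSEA1+ replicate 1. Single trophoblast genes were called in the other direction without a double-negative library, 1 against Thy1+ cells without replicate 2 and 1 against SSEA1+ cells without either. Of 8 neural and glial genes, 4 were higher and 1 lower than in Thy1+ cells and 5 higher and 1 lower than in SSEA1+ cells, Sox10 and Ngfr among the first. The 1 lower than in Thy1+ cells was not called without any other library than double-negative replicate 1, without which 2 were lower. The 1 lower than in SSEA1+ cells was not called without double-negative replicate 2 or SSEA1+ replicate 2. Of 3 skeletal muscle genes 1 was lower than in Thy1+ and 2 higher than in SSEA1+ cells, of 5 endoderm genes 2 and 3, and of 2 blood genes 1 and 1. The 2 endoderm genes became 1 without any 1 of the double-negative and Thy1+ libraries. The part of other cell types in the genes highest in double-negative cells was not tested.

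Adipocyte genes did not follow the fibroblast order. Of 5 tested, 4 were higher than in SSEA1+ cells (median 3.33), and 1 was lower than in Thy1+ cells (median -0.01). The shares over all genes were 20.9% and 14.4%. Fabp4, a fatty acid carrier, had 91 and 153 in Thy1+, 172 and 132 in double-negative and 19 and 10 in SSEA1+ cells. Plin4, a lipid droplet coat protein, had 50 and 38, 39 and 48, and 1 and 2. In both genes the Thy1+ and double-negative libraries overlapped and the SSEA1+ libraries were far lower. Pparg, the regulator of fat cell fate, had 336 and 334, 256 and 330, and 64 and 74. The 1 lower member, Lpl, did not pass without Thy1+ replicate 1 (adjusted p = 0.104).

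Genes with the largest steps between the neighbours were named by rule. Dpysl5, a neuronal microtubule regulator, had 93 and 86, 295 and 284, and 829 and 898, with steps of 1.68 and -1.57. Celsr1, a cadherin of planar polarity, had 32 and 36, 104 and 127, and 326 and 351. Barx1, a homeobox factor, had 34 and 35, 110 and 107, and 412 and 494. In these genes double-negative cells were near the middle on the log2 scale, as were Sowaha (steps of 2.00 and -2.32), Wnk2, a kinase (2.04 and -2.01), Slc38a5, an amino acid transporter (1.78 and -2.28), and Esx1, a homeobox factor of placenta and testis (1.88 and -2.87). Cnpy1 (2.22 and -2.13) lost its call against Thy1+ cells without Thy1+ replicate 2 (adjusted p = 0.113), Dsg2 (1.62 and -1.68), a desmosomal cadherin, without Thy1+ replicate 1 (adjusted p = 0.345), and Insm1 (1.73 and -1.80), a neuroendocrine factor, without double-negative replicate 2 (adjusted p = 0.0568) or Thy1+ replicate 2 (0.0832).

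Among falling genes, Acta1, skeletal muscle actin, had 2127 and 1933, 462 and 427, and 90 and 83, with steps of -2.19 and 2.35. Gpr149, an orphan receptor, had 854 and 843, 164 and 118, and 32 and 30. Tfpi2, an inhibitor of serine proteases, had 545 and 606, 88 and 98, and 20 and 26. Each population was well apart from the next in these genes. Ctla2a had steps of -2.68 and 2.62, Dhrs9 of -2.10 and 2.72, Sprr2k of -2.75 and 2.18, Slc5a7, the choline transporter, of -2.21 and 2.43, and Ptgis, prostacyclin synthase, of -2.13 and 2.19. Prl2c2 and Prl2c3, prolactin family genes, were in the same class (-2.73 and 2.12 for Prl2c2) and are uncertain because near-identical copies can share reads.

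The place of double-negative cells between their neighbours was described by a position. It is 0 at the Thy1+ level and 1 at the SSEA1+ level of a gene. Over 3147 genes that differed between SSEA1+ and Thy1+ cells by at least 1 on the log2 scale with a call (of all genes, 35.4% were called higher and 28.8% lower in SSEA1+ cells), the median position was 0.37 (quartiles 0.24 and 0.50), and 94.2% of genes lay from 0 to 1. It was 0.37 with the first and 0.36 with the second double-negative library. Genes lower in SSEA1+ cells (1904) had a median of 0.31 and genes higher in SSEA1+ cells (1243) one of 0.45. On the linear score scale the order turned, with 0.48 for the lower and 0.31 for the higher genes, so the order of both gene sets depended on the scale. There were 154 genes below 0 and 30 above 1.

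**Figure D5:**
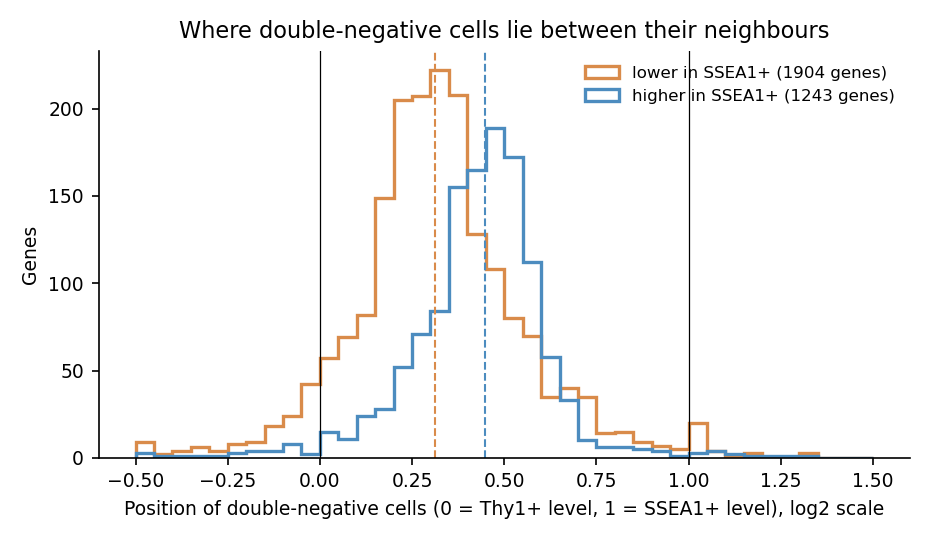
Histogram of the position of double-negative cells on the log2 scale over 1904 genes lower and 1243 genes higher in SSEA1+ than in Thy1+ cells, with dashed lines at the medians of 0.31 and 0.45. Genes beyond the ends of the axis are counted in its end bins, and solid lines mark the Thy1+ (0) and SSEA1+ (1) levels.

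By list, the median position on the log2 scale was 0.26 for fibroblast matrix, 0.36 for smooth muscle, 0.29 for mesenchymal, 0.28 for epithelial and 0.31 for pluripotency genes. On the linear scale the same lists had 0.52, 0.67, 0.48, 0.19 and 0.19, so lists close together on one scale were apart on the other. On the log2 scale it was 0.51 for the 4 factors, 0.49 for 6 DNA replication and 0.45 for 6 mitosis genes, and -0.05 for 4 adipocyte genes, beside 0.39, 0.39, 0.34 and -0.13 on the linear scale. The lowest positions among genes that differed by at least 3 were those of Slitrk6, Meiob, Fabp4, Aqp1 and Fabp7. The Meiob call of double-negative against SSEA1+ cells was lost without double-negative replicate 1. Aqp1, a water channel, had 448 and 415, 564 and 513, and 54 and 45, so double-negative cells had the Thy1+ level or more. The highest positions were those of Gpr174, Ms4a2, Thy1, Upk3b and Hormad1, and Thy1 was set by the sort. Upk3b, a uroplakin that also marks mesothelium, had 134 and 137, 12 and 18, and 8 and 9, so double-negative cells were near SSEA1+ cells. Gpr174 and Ms4a2 were listed at 0 in double-negative and SSEA1+ libraries. Their calls against Thy1+ cells were lost without any 1 of the double-negative and Thy1+ libraries. The position was also taken on the log2 scale over genes with at least a 2-fold difference between the neighbours, whether called or not. Its median was 0.37 at day 3, 0.40 at day 3 with Ctcf shRNA, and 0.61 at both day 6 and day 9. Genes were chosen anew in each set (3390, 3396, 5440 and 3921 genes), so these medians cover different genes.

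In 1358 rising genes, 1072 were rising again with Ctcf shRNA (78.9% of these and 72.2% of the 1484 there, which were 11% of all genes). Of 1360 falling genes, 1145 fell again (84.2% and 79.2% of 1445, 10.7% of all genes). At day 6, 746 of the rising and 1058 of the falling genes had the same class (14.6% and 17.7% of all genes had it), and at day 9, 490 and 838 (8.37% and 12.4%).

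Most of the largest differences from a neighbour, apart from genes higher than in Thy1+ cells, were of genes with libraries listed at 0. Mgat4c, a glycosyltransferase, had 224 and 308 in Thy1+ and 258 and 146 in double-negative cells and was listed at 0 in SSEA1+ cells, as was Tnfsf18, a ligand of the TNF family, with 224 and 402 in Thy1+ and 206 and 92 in double-negative cells. In both genes double-negative cells were far above the SSEA1+ libraries.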

How the data were processed

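RNA of sorted cells was sequenced, and per the labels' protocols it was total RNA extracted with TRIzol and made into NEBNext Ultra libraries. Per the submitters' processing notes, FastQC, Trim Galore, RSEM and the build GRCm38 were used, with no versions. The deposited table holds whole-number scores that the authors had normalized, since all 44 libraries have a median score of 500 and a maximum of 933110 and the 6 libraries sum to 31781239 to 31792776. The normalization is not given in the sources used here, and the depth is unknown. Of the rows, 13451 were genes and 819 repeats, which were left out.

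Scores were tested as log2(score + 1) with limma 3.58.1 in R 4.3.3, with a mean-variance trend and 1 coefficient for each of 22 groups of 2 libraries (22 residual degrees of freedom). P-values were adjusted by Benjamini-Hochberg over all genes, with calls below 0.05. A minimum score of 10 in 2 libraries removed no gene. Genes were named by the smaller step (12 per class apart from both, 10 per direction between), the largest difference from 1 neighbour (5) and extreme positions (5), with a mean of at least 100, and up to 4 per list. Only these 6 libraries and the further groups named in the report were described. Members and lists were chosen with earlier results of these data known. Nothing says that libraries of a group came from separate cultures, so p-values measure only the spread between these samples, which may be technical. Alternatives changed the pseudocount, filter, scaling, trend, libraries in the fit, threshold, replicate block and single libraries. The limma code was tested on simulated data.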

Additional observations from a re-analysis of the deposited data

Results flagged for a closer look

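Cd36 was the 1 gene of 13451 (0.00743%) for which the difference of double-negative cells from the mean of their neighbours itself differed between Ctcf shRNA and control shRNA at day 3. The difference between both shRNAs was 2.69 on the log2(score + 1) scale (limma interaction term, adjusted p = 0.0156). With control shRNA, Cd36 had 1048 and 970 in Thy1+, 182 and 64 in double-negative and 238 and 366 in SSEA1+ cells. With Ctcf shRNA it had 422 and 632, 318 and 264, and 146 and 66, so double-negative cells lay between their neighbours there. The interaction against SSEA1+ cells alone was 2.99 (adjusted p = 0.00547), and that against Thy1+ cells was 2.38 and did not pass (adjusted p = 0.178).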

How the results depend on the processing

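The counts of genes called and of the classes depended on the setting, and so did membership of the 45 highest and 39 lowest genes. At an adjusted p below 0.01 there were 2418 genes against Thy1+ cells, 825 rising, 22 highest and 9 lowest, and with a difference of at least 1 there were 569 against Thy1+, 1660 against SSEA1+ cells, 112 rising, 196 falling, 18 highest and 9 lowest. A mean of at least 100 left 29 highest genes, and adjusting the larger of both p-values left 24 lowest. With replicate numbers as a block in a fit of 6 libraries there were 2223 genes against Thy1+ cells, 826 rising, 882 falling and 25 lowest. The labels do not say whether equal numbers mark paired samples. Deviations of same-numbered libraries correlated at -0.14 (double-negative and Thy1+), 0.335 (double-negative and SSEA1+) and -0.0607 (Thy1+ and SSEA1+). These correlations do not decide it, since they differ between the pairs of populations. Leaving out 1 library gave 2461 to 3768 genes against Thy1+ cells, 4748 to 5994 against SSEA1+ cells, 750 to 1185 rising, 907 to 1268 falling, 21 to 44 highest and 19 to 35 lowest. Of the 39 lowest genes, 16 to 23 were among those called without 1 library, and of the 45 highest, 21 to 41. The median position was 0.39 on the linear scale and 0.36 to 0.37 by library. Genes lowest with both shRNAs numbered 3 under median-of-ratios scaling and 2 at an adjusted p below 0.01, instead of 10. The interaction count was 2 with a pseudocount of 0.5 and 2 without a mean-variance trend, instead of 1. The cause of these shifts was not tested, apart from the stricter thresholds. Of 4766 values of named genes under alternatives, 4264 kept their side of the threshold, 477 lost the call, 25 gained one and 0 changed sign with a call. These values include the setting without the filter, which repeats the main fit. Depth is unknown, and scores near 0 limit genes such as Sox10.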
